A study of Mus musculus with 12 samples.

Results

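The 7 genes of the cyclin dependent kinase inhibitors were followed through RNA-sequencing of mouse pre-B cell lines with and without BCR-ABL1. They were taken by name: Cdkn1a (p21), Cdkn1b (p27), Cdkn1c (p57), Cdkn2a (p16Ink4a and p19Arf), Cdkn2b (p15Ink4b), Cdkn2c (p18Ink4c) and Cdkn2d (p19Ink4d). All 7 were among the 51826 genes of the count table, and all 7 passed the filter on low counts that left 15038 genes to test. Bone marrow cells of 2 C57BL/6 mice were grown with IL7 for 7 days and transduced with a GFP retroviral vector, either empty (EV) or carrying BCR-ABL1. After 48 h, IL7 was withdrawn from the BCR-ABL1 cells for 1 week, while the EV cells kept IL7 and were sorted for GFP. Each mouse gave 3 lines per condition, here named 1A to 1C and 2A to 2C, so that 6 EV lines stood against 6 BCR-ABL1 lines. The fusion, the loss of IL7 and the absence of a GFP sort cannot be told apart in this comparison. The 3 lines of a mouse and condition came from 1 animal, so p-values cover the spread between lines more than that between animals.

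Cyclin dependent kinases drive the cell cycle, and the inhibitors hold them back. The Ink4 proteins (p15, p16, p18 and p19Ink4d) bind CDK4 and CDK6 and keep them from the D-type cyclins, whereas the Cip/Kip proteins (p21, p27 and p57) bind complexes of cyclins and kinases, above all those of CDK2. Cdkn2a also encodes, in another reading frame and from a start of its own, p19Arf, which binds MDM2 and so stabilises p53. In B cell progenitors p18 and p27 are known to restrain division at the pre-B stage, and the locus of Cdkn2a and Cdkn2b is often deleted in acute lymphoblastic leukaemia with BCR-ABL1.

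Cdkn2a lies at chr4:89274471-89294653 and Cdkn2b at chr4:89306299-89311039 of GRCm38, both on the minus strand and 11646 bp apart. The third Ink4 gene of that chromosome, Cdkn2c, is at chr4:109660876-109667189 and Cdkn2d at chr9:21288410-21291407. The Cip/Kip genes Cdkn1a, Cdkn1b and Cdkn1c are at chr17:29090976-29100727, chr6:134920401-134925513 and chr7:143458339-143461050. Because these neighbouring genes moved in the same direction in the lines, the 200 bases just upstream of their annotated starts are shown, read from the RefSeq promoter windows of GRCm38.p6. The distal start of Cdkn2a is that of p19Arf (transcript Cdkn2a-202), and the proximal start is that of p16Ink4a (Cdkn2a-201). Capitals mark the letters of a GC box (GGGCGG on either strand) and of an E2F-type element (TTTCCCGC, TTTCGCGC, TTTGCCGC or TTTGGCGC on either strand).
Cdkn2a distal start, chr4:89294654-89294853, minus strand: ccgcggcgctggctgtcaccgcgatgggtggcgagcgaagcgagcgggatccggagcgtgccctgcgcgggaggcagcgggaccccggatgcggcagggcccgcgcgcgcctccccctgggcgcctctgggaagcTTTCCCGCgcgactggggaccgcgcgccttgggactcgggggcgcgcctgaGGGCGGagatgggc
Cdkn2a proximal start, chr4:89282193-89282392, minus strand: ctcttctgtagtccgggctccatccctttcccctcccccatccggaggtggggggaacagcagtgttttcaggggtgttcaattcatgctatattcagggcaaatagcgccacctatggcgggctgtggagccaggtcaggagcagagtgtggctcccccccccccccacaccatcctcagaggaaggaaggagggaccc
Cdkn2b start, chr4:89311040-89311239, minus strand: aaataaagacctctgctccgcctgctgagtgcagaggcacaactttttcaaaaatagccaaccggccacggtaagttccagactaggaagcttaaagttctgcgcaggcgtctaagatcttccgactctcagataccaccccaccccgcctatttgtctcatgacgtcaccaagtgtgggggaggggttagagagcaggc
The distal Cdkn2a stretch held 31 CpG dinucleotides, the proximal one 4 and that of Cdkn2b 8. The 32851 promoter windows of the table were read over the 200 bases before the RefSeq start, whereas the printed stretches end at GENCODE transcript starts. Of these windows, 2.12% held 31 or more CpG, 57.1% held 4 or more and 39.4% held 8 or more. Read before its RefSeq start, the distal Cdkn2a window held 30 CpG and 2 GC boxes, and that of Cdkn2b held 9 CpG. The distal stretch had 1 GC box and 1 E2F-type element, and neither set of letters was found in the other stretches. Over all windows of this length, 31.0% had a GC box and 1.58% an E2F-type element. Of 9 windows of 6 members, 5 had a GC box and 1, that of the distal Cdkn2a start, an E2F-type element. Among members not called beyond 1.5-fold, the windows of Cdkn2c held 28 and 6 CpG, with 3 and 0 GC boxes. Those of Cdkn1a held 17 and 2 CpG, with 2 and 0 GC boxes. The window of Cdkn1b held 27 CpG and 1 GC box, and that of Cdkn2d 14 CpG and 3 GC boxes. The matches describe the letters only, and binding was not measured.

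Total counts ran from 34791011 to 66011225 per line and are set on a common scale below as CPM, the counts scaled to library size with TMM factors over the tested genes. The 9 B lineage markers summed to 2523 to 4540 CPM of all counts in EV lines and 2637 to 3396 in BCR-ABL1 lines, and all 9 were tested. The 8 myeloid markers summed to at most 1.58 CPM in any line, the 6 T and NK markers to at most 3.64, the 5 erythroid markers to at most 0.977 and the 5 stromal markers to at most 1.38. No myeloid or stromal marker reached the counts needed for a test. Line EV 2C lay apart from the other EV lines for Cdkn2d, the neighbour gene Gm12609 and the family sum, which are also given without it. It also lay apart for the neighbour gene Mtap, at 67.4 CPM where the next EV line was at 36.3. Without line EV 2C, 8.83% of tested genes were called higher and 9.35% lower beyond 1.5-fold, beside 5.99% and 6.49% with all lines. Lower RNA of a gene per cell and fewer cells with that RNA cannot be told apart in bulk samples.

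Of the 7 inhibitor genes, 2 were called higher in BCR-ABL1 lines beyond 1.5-fold: Cdkn2a and Cdkn2b. No member was called lower beyond 1.5-fold. Cdkn1c and Cdkn2d had log2 fold changes of 1.15 and -0.66, past 1.5-fold in size, but were not called. Over all tested genes, 5.99% were called higher and 6.49% lower by the same test, edgeR's quasi-likelihood fit with glmTreat against 1.5-fold and a Benjamini-Hochberg adjusted p under 0.05. Against no change at all (glmQLFTest of the same fit), Cdkn1a joined the 2 higher members and Cdkn2d was lower, beside 22.5% of genes called higher and 25.9% called lower. The ranges of the conditions did not overlap for 2 members, again Cdkn2a and Cdkn2b, where all BCR-ABL1 lines lay above all EV lines. Such a gap was seen upward for 12.1% of tested genes and downward for 13.5%.

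**Figure D1:**
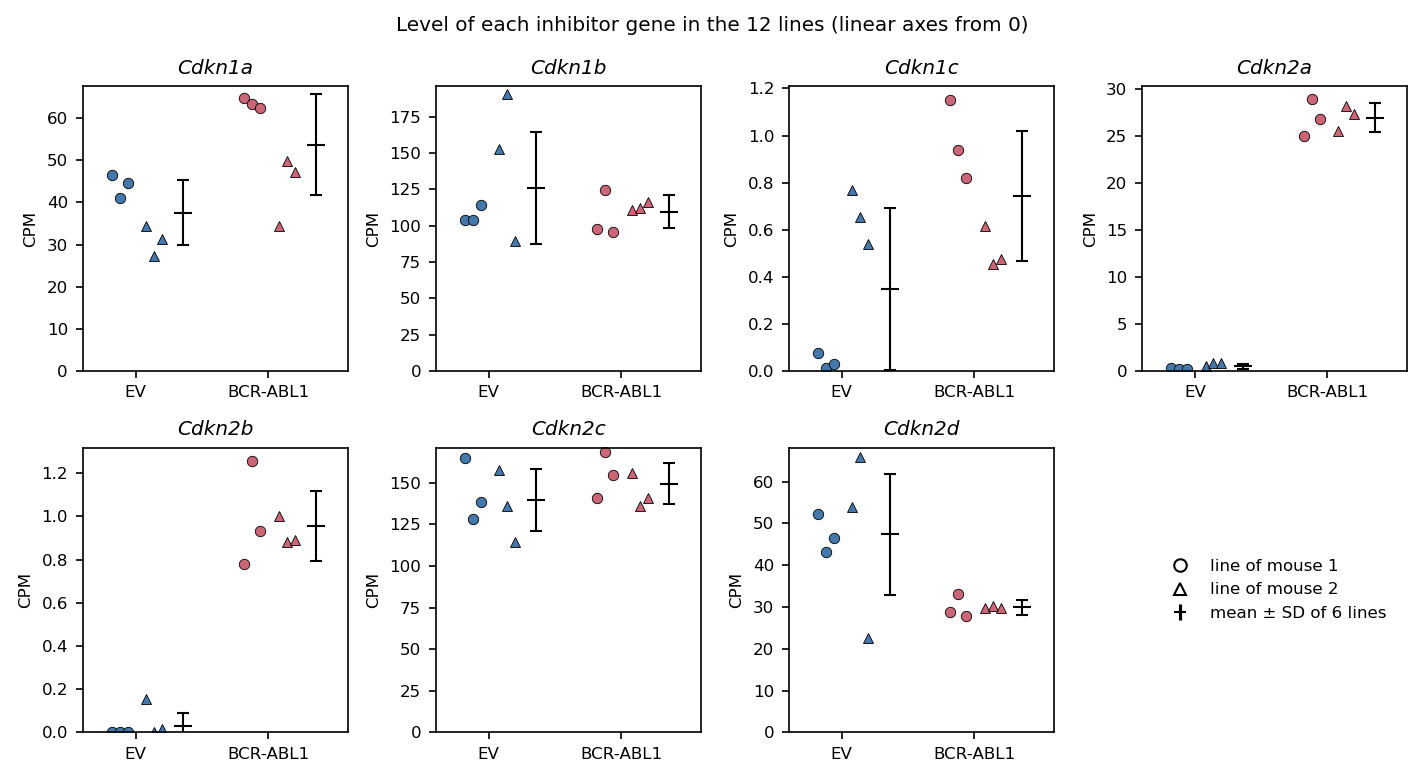
CPM of the 7 inhibitor genes (vertical axes, linear and from 0) in the 6 EV lines (blue) and the 6 BCR-ABL1 lines (red), with circles for mouse 1, triangles for mouse 2 and bars for mean ± SD of 6 lines. Cdkn2a and Cdkn2b are near 0 in every EV line and higher in every BCR-ABL1 line, at 24.99 to 28.9 CPM and 0.780 to 1.25 CPM. Cdkn1c is near 0 in the EV lines of mouse 1 alone, and the other 4 genes overlap between conditions.

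Cdkn2a was the more abundant of the called members. Its level in EV lines 1A, 1B and 1C was 0.282, 0.231 and 0.230 CPM, and in lines 2A, 2B and 2C it was 0.552, 0.814 and 0.866 CPM. In BCR-ABL1 lines 1A, 1B and 1C it was 24.99, 28.9 and 26.8 CPM, and in lines 2A, 2B and 2C it was 25.6, 28.2 and 27.4 CPM. The lowest BCR-ABL1 line was thus far above the highest EV line, on 15 to 48 counts per EV line and 1180 to 1853 per BCR-ABL1 line. The log2 fold change was 5.77 ± 0.34 (SE, 6 against 6 lines, edgeR adjusted p = 2.03e-06), which put it at place 91 of the 15038 tested genes by size of the rise and at place 20 by p. The p16Ink4a and p19Arf transcripts share 575 of the 1172 exon bases of the gene (49.06%), with 277 bases found in p16Ink4a alone and 320 in p19Arf alone. The table holds 1 count per gene, so the counts do not say which of the products was made.

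The size of the Cdkn2a change differed between the mice, and the difference lay in the EV lines. The log2 fold change was 6.76 in the lines of mouse 1 and 5.15 in those of mouse 2. The change in mouse 2 minus that in mouse 1 was -1.60 (edgeR interaction test, adjusted p = 0.000686). In EV lines Cdkn2a was 1.61 higher on the log2 scale in mouse 2 than in mouse 1 (adjusted p = 9.14e-05). In BCR-ABL1 lines the difference was 0.01 (adjusted p = 0.991), and the means were 26.9 ± 1.96 CPM in mouse 1 and 27.05 ± 1.34 CPM in mouse 2 (SD, n = 3 lines each). The change in either mouse alone was past the threshold.

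Cdkn2b, the neighbour that encodes p15Ink4b, moved in the same direction from almost nothing. Its counts in EV lines 1A, 1B, 1C, 2A, 2B and 2C were 0, 0, 0, 5, 0 and 1. In the BCR-ABL1 lines, in the same order, they were 46, 60, 41, 52, 58 and 43, or 0.780 to 1.25 CPM with a median of 0.912. All 6 BCR-ABL1 lines were above all EV lines. The log2 fold change was 5.43 ± 0.40 (SE, edgeR adjusted p = 0.000394), but a fitted change from so few counts depends on the prior count. The SE is taken on log2 CPM, where all EV lines without a count share 1 value, and is not the error of the fitted change. Without EV line 2A, which held 5 of the 6 EV counts, the fitted change was 7.39. On summed counts, 300 against 6, the ratio was 51.5 with a 95% exact interval of 23.4 to 141, which covers counting error only. In mouse 1, where the EV lines had no count, the BCR-ABL1 level of Cdkn2b was at least 60.9-fold higher, taken against a floor of 3 counts over the EV group. In mouse 2 the ratio was 21.3 (9.55 to 58.9). The ratio of summed counts of Cdkn2a over both mice, 57.4 (48.9 to 67.8), lay within the interval of Cdkn2b, so that the order of the 2 changes is not set by these data. The change did not pass the test for a difference between the mice (adjusted p = 0.116), though it did in DESeq2 and without a gene filter.

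The same stretch of chromosome 4 was examined for other genes, since 49 other genes of the table lie within 100 kb of a member and 28 of them were tested. Both tested neighbours of Cdkn2a and Cdkn2b were called higher beyond 1.5-fold, as were 5.99% of all tested genes. Mtap, the enzyme methylthioadenosine phosphorylase, whose body ends 93390 bp from Cdkn2a, was at 13.3 to 67.4 CPM in EV lines with a median of 32.3. In BCR-ABL1 lines it was at 86.0 to 104 CPM with a median of 95.1. No line of one condition reached the range of the other, and the log2 fold change was 1.43 ± 0.31 (SE, edgeR adjusted p = 0.0162). The noncoding gene Gm12609, 70918 bp from Cdkn2b, had 2 to 21 counts in EV lines and 16 to 41 in BCR-ABL1 lines. Its highest EV line, 2C, overlapped the BCR-ABL1 lines at 0.379 CPM, and the other EV lines were at 0.123 CPM or less. Its log2 fold change was 1.96 ± 0.40 (edgeR adjusted p = 0.0326), a call kept in 4 of the 12 fits that left out 1 line (adjusted p at most 0.072) and lost in DESeq2 (adjusted p = 0.0938). Without EV line 2C the change was 2.73 (adjusted p = 0.000282). In mouse 2 alone neither gene was called, Mtap with a log2 change of 1.26 (adjusted p = 0.41) and Gm12609 with 1.12 (0.561). That fit of 3 against 3 lines called 3.99% of tested genes higher, beside 16.3% in mouse 1 alone. In mouse 1 alone both genes were called, with log2 changes of 1.61 and 3.29. The long noncoding gene Gm12606, 1068 bp from Cdkn2a on the same strand and chosen after its values were seen, was too low to test, with 0 to 2 counts in EV lines and 5 to 13 in BCR-ABL1 lines.

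Around the other members no tested neighbour was called higher beyond 1.5-fold. Against no change, Srsf3 near Cdkn1a (log2 fold change 0.36), Faf1 near Cdkn2c (0.35) and Kri1 near Cdkn2d (0.29) were higher (edgeR adjusted p = 0.00142, 0.00271 and 0.0369), named after their values were seen. By the same test Stk38 (-0.31) and Rab44 (-1.15) near Cdkn1a were lower, as were Gpr19 (-0.93), Crebl2 (-0.75) and Gm44366 (-0.98) near Cdkn1b. Atg4d (-0.42) and Gm36198 (-0.88) near Cdkn2d were lower too (edgeR adjusted p of these lower genes 6.04e-05 to 0.0484). Over all tested genes, 22.5% were higher and 25.9% lower by that test. None of the tested neighbours of Cdkn1a (5 genes), Cdkn1b (7), Cdkn1c (3) and Cdkn2c (2) was called beyond 1.5-fold. Near Cdkn2d, 3 of 9 tested neighbours were called lower beyond 1.5-fold, beside 6.49% of all tested genes. Ap1m2, an adaptor subunit of protein sorting in epithelia that lies 2868 bp away, fell by 1.70 on the log2 scale (adjusted p = 0.00243). Slc44a2, a choline transporter, fell by 1.08 (adjusted p = 0.00246), and the noncoding Gm39302 fell by 2.65 (adjusted p = 0.00039). For each of these the BCR-ABL1 lines all lay below the EV lines, whereas Cdkn2d itself was not called. Ap1m2 was low, with 41 to 109 counts in EV lines and 18 to 32 in BCR-ABL1 lines. Gm39302 had 34 to 114 and 5 to 18 counts. A filter of CPM of at least 1 in 6 lines removed both Ap1m2 and Gm39302 before testing. In mouse 2 alone Ap1m2 (log2 change -1.90, adjusted p = 0.0657) and Slc44a2 (-0.84, adjusted p = 0.166) were not called. That fit called 2.65% of tested genes lower.

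**Figure D2:**
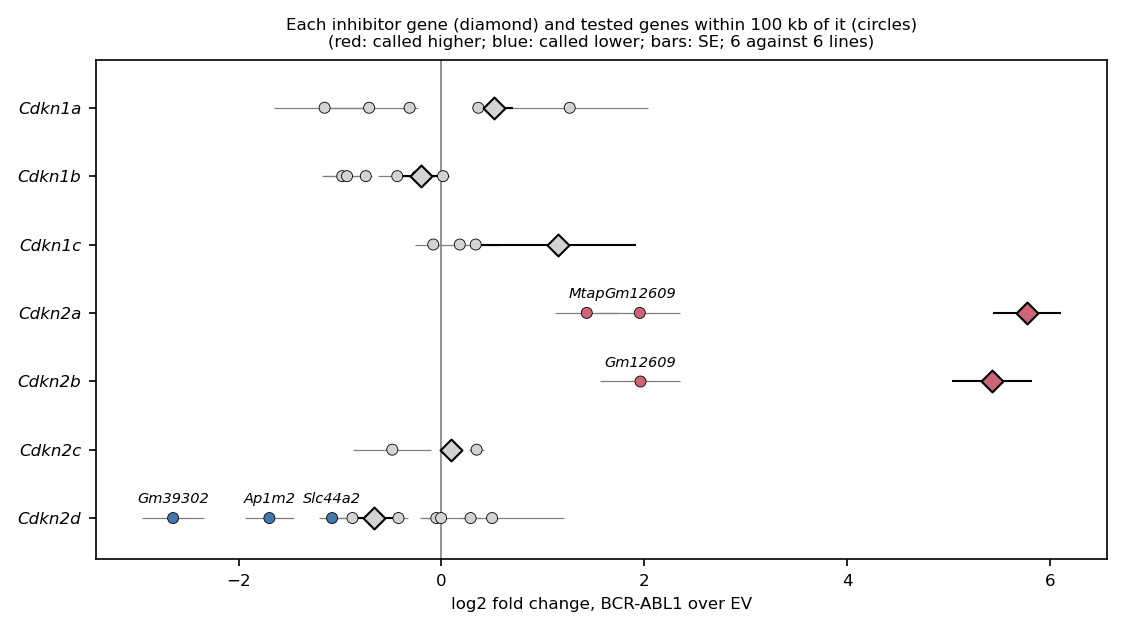
Log2 fold change of BCR-ABL1 over EV lines (horizontal axis, bars for SE, 6 against 6 lines) for each inhibitor gene (diamonds) and the tested genes within 100 kb of it (circles), red where called higher beyond 1.5-fold and blue where called lower. Mtap at 1.43 and Gm12609 at 1.96 lie beside Cdkn2a at 5.77, and 3 genes near Cdkn2d lie between -2.65 and -1.08.

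Cdkn2d, which encodes p19Ink4d, was lower in BCR-ABL1 lines but did not pass the test against 1.5-fold. EV lines 1A, 1B, 1C, 2A and 2B were at 52.3, 43.2, 46.5, 53.9 and 66.0 CPM. EV line 2C stood at 22.6 CPM, below every BCR-ABL1 line. The BCR-ABL1 lines lay close together, at 27.8 to 33.0 CPM with a median of 29.7. Cdkn2d fell by 0.66 ± 0.22 on the log2 scale (SE, edgeR adjusted p = 0.0132 against no change, 0.519 against 1.5-fold). The estimates in mouse 1 and mouse 2 were -0.66 and -0.67. Neither passed against no change in the edgeR fit with 4 groups of mouse and condition (adjusted p = 0.0747 and 0.0819). Without EV line 2C Cdkn2d fell by 0.81 and was called lower beyond 1.5-fold (adjusted p = 0.0351), in a fit that called 9.35% of genes lower.

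Cdkn2c, which encodes p18Ink4c, was the most abundant member and differed little. EV lines spanned 114 to 165 CPM (median 137) and BCR-ABL1 lines 136 to 169 CPM (median 148). The ranges overlapped over most of their length. The log2 fold change was 0.10 ± 0.09 (SE, edgeR adjusted p = 0.400 against no change).

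Among the Cip/Kip genes, Cdkn1a, the p53 target that encodes p21, was higher in BCR-ABL1 lines within each mouse. In mouse 1 the EV lines were at 46.5, 41.0 and 44.7 CPM and the BCR-ABL1 lines at 64.8, 63.4 and 62.4. In mouse 2 the EV lines were at 34.3, 27.3 and 31.3 CPM and the BCR-ABL1 lines at 34.4, 49.9 and 47.3. Within mouse 1 the conditions were apart, and within mouse 2 BCR-ABL1 line 2A lay only just above the highest EV line. The log2 fold change was 0.52 ± 0.19 (SE), which passed the test against no change (edgeR adjusted p = 0.0273) and not that against 1.5-fold (adjusted p = 0.960). It no longer passed the test against no change without EV line 2A or 2B, or without BCR-ABL1 line 1A or 1B. The change was 0.53 in mouse 1 and 0.50 in mouse 2 (adjusted p = 0.00725 and 0.0118 in the fit with 4 groups of mouse and condition), with a difference of -0.02 (adjusted p = 0.957). In a separate fit of the lines of mouse 2 alone Cdkn1a did not pass the test against no change. Lines of mouse 2 were lower than those of mouse 1 in both conditions, by a log2 difference of -0.51 in EV (adjusted p = 0.0161) and -0.53 in BCR-ABL1 (adjusted p = 0.0374).

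Cdkn1b, which encodes p27, was high in every line and did not pass either test. EV lines 1A, 1B and 1C were at 104, 104 and 114 CPM, and lines 2A, 2B and 2C spread from 152 and 191 down to 89.2. BCR-ABL1 lines were at 95.5 to 125 CPM with a median of 112. The EV lines of mouse 2 alone covered a wider range than all the BCR-ABL1 lines. The log2 fold change was -0.20 ± 0.18 (SE, edgeR adjusted p = 0.346 against no change).

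Cdkn1c, which encodes p57, behaved differently in the lines of the mice. In mouse 1 the EV lines were at 0.0753, 0.0144 and 0.0307 CPM, from 4, 1 and 2 counts, and the BCR-ABL1 lines at 1.15, 0.940 and 0.818 CPM. In mouse 2 the EV lines were at 0.767, 0.656 and 0.541 CPM and the BCR-ABL1 lines at 0.616, 0.456 and 0.477. The EV lines of mouse 1 were thus the 3 lowest of the 12, and the other 9 lines lay between 0.456 and 1.15 CPM. Over both mice the log2 fold change was 1.15 ± 0.77 (SE, edgeR adjusted p = 0.206 against no change). In mouse 1 summed counts gave a ratio of 26.5 (95% exact interval 12.5 to 67.0) and in mouse 2 of 0.806 (0.591 to 1.10). The log2 change in mouse 2 minus that in mouse 1 was -4.93 (edgeR interaction test, adjusted p = 6.75e-05). In EV lines mouse 2 was 4.02 higher than mouse 1 on the log2 scale (adjusted p = 3.58e-05), and in BCR-ABL1 lines the difference was -0.91 (adjusted p = 0.102). The antisense gene Gm44732 overlaps 625 exon bases of Cdkn1c but had only 14 counts in all lines together.

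**Figure D3:**
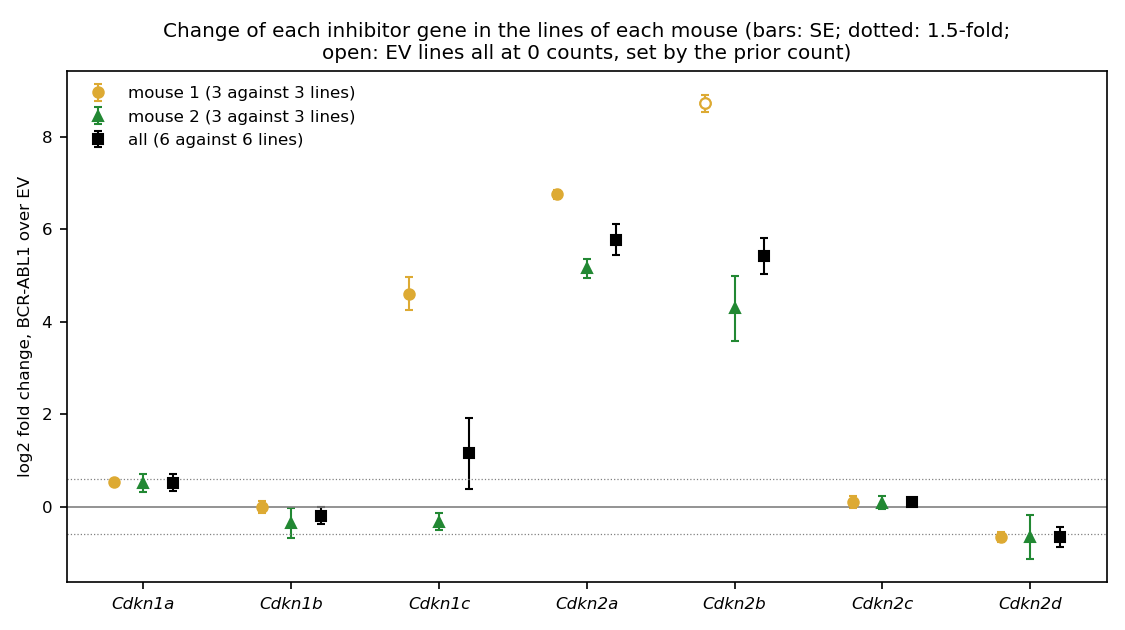
Log2 fold change of BCR-ABL1 over EV lines (vertical axis) for each inhibitor gene in mouse 1 (circles), mouse 2 (triangles) and all lines (squares), with bars for SE and dotted lines at 1.5-fold in either direction. The changes of Cdkn1c (4.60 and -0.33) and Cdkn2a (6.76 and 5.15) differ between the mice, and the open circle of Cdkn2b in mouse 1 is set by the prior count because its EV lines had no count.

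In all, 2 of the 7 members, Cdkn1c and Cdkn2a, changed by different amounts in the mice, beside 16.9% of all tested genes. Between the mice, 3 members differed in EV lines (Cdkn1a, Cdkn1c and Cdkn2a), beside 24.8% of genes. In BCR-ABL1 lines 1 member, Cdkn1a, differed, beside 5.97% of genes. For Cdkn1c and Cdkn2a the EV lines of mouse 2 were the higher ones, and for Cdkn1a the lower ones.

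Levels of different members were compared per kilobase of exon. In EV lines the order of the means was Cdkn2c (52.1 ± 6.94 CPM per kb, SD, n = 6), Cdkn2d (30.1 ± 9.18), Cdkn1b (27.6 ± 8.44), Cdkn1a (10.6 ± 2.17), Cdkn2a (0.423 ± 0.249), Cdkn1c (0.170 ± 0.169) and Cdkn2b (0.0205 ± 0.0443). The ranges of Cdkn2d and Cdkn1b overlapped, as did those of Cdkn2a, Cdkn1c and Cdkn2b from one to the next. In BCR-ABL1 lines the order was Cdkn2c (55.7 ± 4.62 CPM per kb), Cdkn1b (24.1 ± 2.46), Cdkn2a (23.0 ± 1.28), Cdkn2d (19.0 ± 1.12), Cdkn1a (15.1 ± 3.38), Cdkn2b (0.688 ± 0.117) and Cdkn1c (0.365 ± 0.135). Here Cdkn2a had moved up to the range of Cdkn1b, which it overlapped, and it lay above the range of Cdkn2d. The ranges of Cdkn2d and Cdkn1a overlapped, as did those of Cdkn2b and Cdkn1c. With the longest transcript as the length in place of all exons, 4 members took another place in BCR-ABL1 lines (Cdkn1a, Cdkn1b, Cdkn2a and Cdkn2d), so the order among these 4 depends on the length used.

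Summed over the 7 genes, inhibitor RNA was 86.4 to 143 CPM per kb in EV lines (median 125) and 133 to 155 in BCR-ABL1 lines (median 134). The ranges overlapped. EV line 2C was the lowest, and without it the EV lines started at 109.8 and still overlapped the BCR-ABL1 lines. Cdkn2a made up 0.165 to 0.855% of that sum in EV lines and 15.9 to 18.01% in BCR-ABL1 lines. Cdkn2c made up 35.4 to 49.3% in EV lines and 37.9 to 43.4% in BCR-ABL1 lines. Cdkn2b and Cdkn1c stayed under 1 CPM per kb in every line of either condition.

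**Figure D4:**
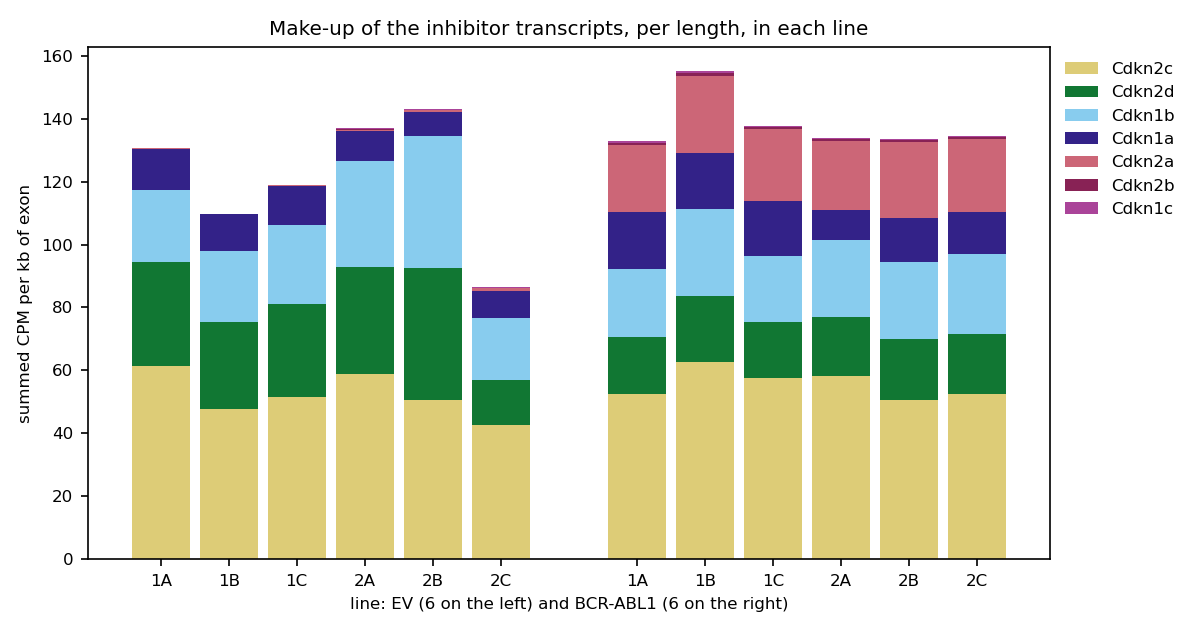
Level per kilobase of exon (CPM per kb, bars from 0) of the 7 inhibitor genes stacked in each of the 6 EV and 6 BCR-ABL1 lines. Cdkn2c is the largest block in each line, and the Cdkn2a block goes from under 1% to 15.9 to 18.01% of the sum.

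The genes the inhibitors act on or answer to were taken as 6 lists. Of the 9 cyclins and kinases bound by the inhibitors, 3 were called higher and none lower beyond 1.5-fold, beside 5.99% and 6.49% of all tested genes. The median log2 fold change was 0.36 beside -0.02 over all tested genes, and it was -0.02 in mouse 1 and 0.71 in mouse 2. The 3 were the D-type cyclins, partners of CDK4 and CDK6. Ccnd1 spanned 0.0289 to 0.460 CPM over EV lines and 0.848 to 3.72 CPM over BCR-ABL1 lines, a log2 change of 4.43 ± 0.54 (SE, edgeR adjusted p = 0.00056). Ccnd2 spanned 8.58 to 170 CPM and 373 to 482 CPM (3.05 ± 0.68, adjusted p = 0.0111), and Ccnd3 spanned 519 to 656 CPM and 912 to 1025 CPM (0.82 ± 0.06, adjusted p = 0.0079). Each was called with any 1 line left out, but Ccnd2 in mouse 2 alone and Ccnd3 in mouse 1 alone had an adjusted p of 0.0828 and 0.0788. The fit of mouse 2 alone called 3.99% of tested genes higher, and that of mouse 1 alone 16.3%. For each of the 3 all BCR-ABL1 lines were above all EV lines. The kinases that the Ink4 proteins bind were not called beyond 1.5-fold, but against no change Cdk4 was higher (log2 fold change 0.45, edgeR adjusted p = 0.0431) and Cdk6 lower (-0.54, adjusted p = 0.00833), both named here after their values were seen.

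Of the 11 pocket proteins and E2F factors, the transcription regulators downstream of the kinases, none was called, and the median log2 fold change was 0.05. Against no change, 3 were higher and 3 lower, near the 22.5% and 25.9% of all tested genes.

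The list around ARF and p53 held 16 tested genes of 17. In it, 7 were called higher and 2 lower beyond 1.5-fold, beside 5.99% and 6.49% of all tested genes. The median log2 fold change was 0.92. The largest rises were those of the p53 targets Eda2r, a receptor of the TNF receptor family (5.91 ± 0.46, edgeR adjusted p = 7.14e-05), Phlda3, an inhibitor of AKT (2.91 ± 0.16, adjusted p = 2.02e-06), and Zmat3, an RNA-binding protein (2.32 ± 0.16, adjusted p = 6.59e-06). Eda2r spanned 0.0144 to 0.318 CPM over the EV lines and 4.09 to 8.99 CPM over the BCR-ABL1 lines, without overlap. The pro-apoptotic Bbc3 (Puma) had the smallest rise among the called genes, 0.97 ± 0.17 (adjusted p = 0.0374). Also p53 targets, Trp53inp1 fell by 1.23 (adjusted p = 0.0421) and Rrm2b, a subunit of ribonucleotide reductase, fell by 1.08 (adjusted p = 0.0268), each with overlapping lines. The calls of Bbc3, Trp53inp1 and Rrm2b were kept in 4, 2 and 8 of the 12 fits that left out 1 line, and those of Eda2r, Phlda3 and Zmat3 in all 12. DESeq2 did not call Bbc3, Trp53inp1 or Rrm2b (adjusted p = 0.126, 0.191 and 0.147). Nor did a fit of mouse 2 alone (0.518, 0.111 and 0.262), which called 3.99% of tested genes higher and 2.65% lower. With the line pair as replicate block Trp53inp1 and Rrm2b were not called (0.11 and 0.0563). Named after their values were seen, Trp53 itself had a log2 fold change of -0.19 and Mdm2, the ligase that p19Arf binds, of -0.08, and neither passed a test.

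Of the 14 tested Polycomb proteins and other regulators of the Ink4 and Arf locus (of 16), 1 was called higher and 2 lower beyond 1.5-fold. That stood beside the same 5.99% and 6.49%, and the median log2 fold change was -0.14. Id1, a helix-loop-helix protein known to repress Ink4a, rose from at most 0.874 CPM in EV lines to 0.909 to 2.93 CPM (2.18 ± 0.56, edgeR adjusted p = 0.0295, called in 7 of the 12 fits without 1 line). Ets1, a factor known to activate Ink4a, fell by 1.37 (adjusted p = 7.06e-05), from 592 to 693 CPM in EV lines to 208 to 298 CPM. Tbx2, a repressor of the locus, fell by 1.76 from under 1 CPM in every line (adjusted p = 0.0223), with overlapping lines. That call was lost in DESeq2 (adjusted p = 0.0972), in mouse 1 alone (0.0577) and in mouse 2 alone (0.0942). The fit of mouse 1 alone called 12.2% of tested genes lower, and that of mouse 2 alone 2.65%. With the mouse as replicate block 3 genes of the list fell, Ets2 being added (log2 change -1.19, adjusted p = 0.0323). The regulators of p27 and p21, 13 genes, had no member called and a median of 0.06.

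The 18 proliferation genes had no member called beyond 1.5-fold. Against no change 9 were higher and none lower, and all 18 log2 fold changes over both mice were above 0 with a median of 0.31 and a highest value of 0.65. By mouse, 13 of 18 were above 0 in mouse 1 with a median of 0.09, and 18 of 18 in mouse 2 with a median of 0.56. The change differed between the mice for 5 of the 18 (edgeR interaction test), beside 16.9% of all tested genes. Read beside the 22.5% of all genes called higher against no change, 9 of 18 is above the background. The members of the list share the cell cycle and are not independent of each other.

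**Figure D5:**
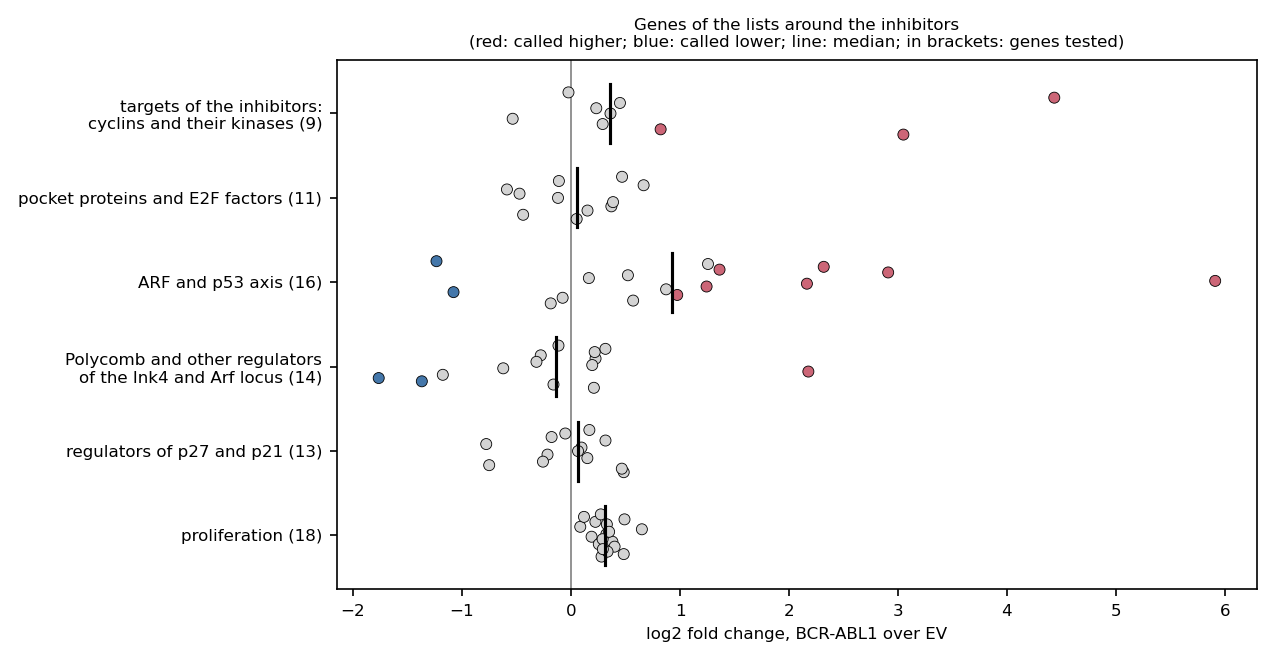
Log2 fold change of BCR-ABL1 over EV lines (horizontal axis) for the tested genes of 6 lists around the inhibitors, 1 point per gene, red where called higher beyond 1.5-fold, blue where called lower, with a line at the median of each list. Called genes are in the lists of cyclins and kinases (3), of ARF and p53 (9) and of regulators of the Ink4 and Arf locus (3), and the proliferation genes lie between 0.08 and 0.65.

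For each member, the genes with the most similar pattern were sought among 11049 tested genes whose mean log2 CPM was 1 or more, as Pearson's r of log2 CPM over the 12 lines. For Cdkn2a they were Tifab (r = 0.996), Trem1 (0.996) and Gbp7 (0.995), and for Cdkn2b Cdhr2 (0.993), Slfn8 (0.991) and Egfl7 (0.989). The lines form separate groups by condition for both genes, and r over the 12 lines includes that step. For Cdkn1c, whose step was seen in mouse 1 alone, they were Slc43a1 (0.987), Ttc21b (0.985) and Sertad4 (0.983). For Cdkn2d they were St7l (0.988), Tmem71 (0.983) and Trim12a (0.980). For Cdkn1b they were Cmas (0.958), Trim12c (0.958) and Plekhf2 (0.945), and for Cdkn1a Fbxo21 (0.948), Adarb1 (0.939) and Klf8 (0.925). Cdkn2c had the least similar partners, Calm3 (0.918), Gpalpp1 (0.862) and Pym1 (0.861).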

How the data were processed

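The deposited file holds raw counts per Ensembl gene for the 12 lines (1 column each, 0 columns of no sample), which the authors made from total RNA libraries (TruSeq stranded, Gold). The submitters' processing notes name FastQC 0.11.5, Trimmomatic 0.36, TopHat2 2.1.1, Bowtie2 2.3.2, featureCounts 1.5.3, R 3.6.1, edgeR 3.18.1 and GRCm38. The strand setting and annotation release are not given in the sources used here. Genes were named from GENCODE M21, which matched 51633 of 51826 identifiers, and promoters came from RefSeq, which held 6 of the 7 members. The BCR-ABL1 transcript itself was not analysed here.

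Counts were filtered (filterByExpr), scaled by TMM and fitted with edgeR 4.0.16 in R 4.3.3 over the whole table, without a block. Calls were made by glmTreat against 1.5-fold, and also by glmQLFTest against no change, at a Benjamini-Hochberg adjusted p under 0.05. A fit with 4 groups of mouse and condition tested the interaction and the mice within a condition. SE is that of the difference of mean log2 CPM (prior count 2), and not of the edgeR fold change printed beside it. At the low counts of Cdkn2b and Cdkn1c that difference and the edgeR fold change are not the same. Exact binomial intervals have a level of 95%, and the floor is 3 counts. The steps were tested on simulated data. Alternatives were DESeq2 1.42.0, other scaling and filters, a likelihood ratio fit, replicate blocks, each mouse alone and each line left out. The mouse pairs the lines, since lines of a number come from 1 animal. Deviations from group means correlated at 0.0853 to 0.240 within a mouse and at -0.203 to -0.0636 across mice. Such deviations sum to 0 in each condition, so with 2 mice the opposite signs are partly built in. No 2 lines of a mouse and condition agreed within sampling noise.

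The members and lists were chosen with earlier results of these data known. Named were all members; called genes of each list, if at most 5, and otherwise the 3 highest and the 3 lowest changes among them; called genes within 100 kb; and the 3 most similar genes per member.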

Additional observations from a re-analysis of the deposited data

Results flagged for a closer look

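Cdkn2b in the EV lines had 1 line far from the others: line 2A was at 0.153 CPM (5 counts), while the other EV lines had 0 or 1 count. It was the only one of 14 groups of 6 lines, 7 members in 2 conditions, where the gap passed Dixon's 95% value. Chance alone marks about 1 group in 20, but that rate does not hold for lines mostly at 0. There, a few counts in 1 line are enough to pass.

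The changes of 2 members differed between the mice by the edgeR interaction test. The log2 change of Cdkn1c in mouse 2 minus that in mouse 1 was -4.93 (adjusted p = 6.75e-05), and that of Cdkn2a was -1.60 (adjusted p = 0.000686). Both also passed with any single line left out, and the EV lines of mouse 1 were the lowest lines for both genes.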

How the results depend on the processing

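Cdkn2a and Cdkn2b were the members called higher beyond 1.5-fold under RLE scaling, no gene filter, a likelihood ratio fit, DESeq2, the mouse or the line pair as replicate block, mouse 2 alone and each line left out (2 members throughout). With mouse 1 alone Cdkn1c was called as well (log2 fold change 4.63, adjusted p = 8.16e-06), and with mouse 2 alone its direction turned (-0.32). The fit of mouse 1 alone called 16.3% of tested genes higher and 12.2% lower, and that of mouse 2 alone 3.99% and 2.65%. A filter of CPM of at least 1 in 6 lines removed Cdkn2b and Cdkn1c before testing, which left 1 member called higher, 1 whose change differed between the mice and 2 called neighbours. Members called lower were 0 to 1 over the fits without 1 line, 1 being Cdkn2d without EV line 2C. The test against no change also gives 1 lower, and with mouse 2 alone that count was 0. Members whose change differed between the mice were 2 to 3 over those fits, with Cdkn1b added without EV line 2C and Cdkn2b without EV line 2B, and DESeq2 and no gene filter also added Cdkn2b. List genes called were 10 to 16 (15 with all lines). Called neighbours were 4 to 8 over the fits without 1 line, with 8 without EV line 2C, and the cause was not tested. With the longest transcript as length, 4 members changed place in the BCR-ABL1 order. Under the mouse as replicate block the count of members called stayed at 2 higher and 0 lower, any change at 3 and 1, and called neighbours at 5. The mouse block changed no call of a member and, among list genes, added Ets2 as lower (adjusted p = 0.0323). The line pair as replicate block lost 3 calls of list genes, Pmaip1, Trp53inp1 and Rrm2b. Alternatives for the lists and neighbours were chosen after seeing the data. Depth limits Cdkn2b and Cdkn1c, with at most 60 and 68 counts in a line.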
